A study of Homo sapiens with 6 samples.

Results

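The glycolysis and hypoxia response is a set of 35 genes: glucose and lactate transporters, the enzymes from hexokinase to lactate dehydrogenase, regulators of the flux through them, the oxygen-sensing genes, and well-known targets of the hypoxia-inducible factor (HIF). The genes were taken from a written list, and each was read from the probe set, among those annotated to that gene alone, with the highest mean over all 6 arrays. Of the 35 genes, 33 had such a probe set, out of 19775 genes that had one in the whole series. SLC16A3 and CA9 were not analysed here. The level of 32 of the 33 was high enough for testing, out of 12367 genes tested. ADM, which encodes the secreted peptide adrenomedullin, had a mean log2 level of 6.89, below the filter at 7.11, and its values are given without a place in the counts.

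The cells were L428, an established line of Hodgkin lymphoma. The miR-9 LNA group was 3 samples nucleofected with a locked nucleic acid (LNA), a chemically stabilized oligonucleotide, that inhibits the microRNA miR-9. The scrambled LNA group was 3 samples nucleofected with an LNA of scrambled sequence. Both groups share 1 cell line, nucleofection, culture with 20% oxygen and 5% CO2, and RNA extraction 9 h later, and a non-transfected group was not analysed here. Each sample was measured on 1 Affymetrix HG-U133 Plus 2.0 array, and all levels below are log2 values as deposited. The labels number the samples 1 to 3 in each group without saying what a number shares or whether samples were separate cultures, so p-values measure only the spread between these samples. In bulk RNA, fewer cells of a type and less RNA per cell cannot be told apart.

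Glycolysis splits glucose into pyruvate. Glucose enters through transporters of the SLC2A family, is trapped by hexokinase, is committed by phosphofructokinase, and yields ATP at the steps of phosphoglycerate kinase and pyruvate kinase. Lactate dehydrogenase then regenerates the NAD+ that the pathway uses. When oxygen is plentiful, prolyl hydroxylases of the EGLN family mark the HIF alpha subunits for destruction. When it is scarce, HIF persists, binds DNA at short elements containing ACGTG or GCGTG, and raises transcription of most glycolytic genes and of genes for blood vessel growth, mitophagy and protein folding.

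The cell line was checked by its markers, and the arrays differed in a few technical measures. The level of miR-9 itself was not analysed here. Markers of Hodgkin lymphoma lines were above the filter in 6 of 6 genes, with means between 10.31 and 12.70, and their mean per array was 11.34, 11.33 and 11.59 with the miR-9 LNA against 11.27, 11.34 and 11.48 with the scrambled LNA. B cell markers were above it in 2 of 4 genes with means of 6.73 to 7.44, T cell markers in 0 of 3, myeloid markers in 0 of 2, and fibroblast markers in 3 of 3 with means of 7.11 to 8.16. The lowest level on each array lay near 6, which may compress the differences of dim genes. Array medians were between 7.097 and 7.150, and the 90th percentile was 9.57, 9.53 and 9.57 with the miR-9 LNA against 9.28, 9.45 and 9.47 with the scrambled LNA. Scrambled replicate 1 was the array with the lowest upper range, and it had the highest dap spike-in control level (10.19, against 8.06 to 8.67 on the other arrays). The 3' minus 5' difference of the ACTB control probe sets, a measure of RNA integrity and labelling, was 0.87, 0.40 and 0.22 on miR-9 LNA replicates 1, 2 and 3, against 0.58, 0.36 and 0.24 on scrambled replicates 1, 2 and 3. That of GAPDH was 0.060, 0.006 and -0.003 with the miR-9 LNA, against 0.186, -0.011 and -0.049 with the scrambled LNA. It was thus highest on scrambled replicate 1, while that of ACTB was highest on miR-9 LNA replicate 1.

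The microRNA targeted by the inhibitor is shown with its seed, bases 2 to 8, in capitals, because the seed is what pairs with target transcripts. The same mature strand comes from MIR9-1 on chromosome 1, MIR9-2 on chromosome 5 and MIR9-3 on chromosome 15 (RefSeq, GRCh38.p14).
hsa-miR-9-5p: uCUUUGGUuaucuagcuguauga

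Promoters are shown for 6 genes. BNIP3, PGK1, P4HA1, ANKRD37 and LDHA had their highest level on replicate 3 in both groups, as described below, and ENO2 did not. Each is the 250 bases before the RefSeq start, written 5' to 3' on the gene's strand, with every ACGTG, or CACGT for the other strand, in capitals. Where the 2 overlap they read CACGTG, which is also the E-box bound by MYC, so a match does not name a factor. The windows are BNIP3 at chr10:131981924-131982173 (minus strand), PGK1 at chrX:78103998-78104247 (plus), P4HA1 at chr10:73096867-73097116 (minus), ANKRD37 at chr4:185396591-185396840 (plus), LDHA at chr11:18394313-18394562 (plus, the one further upstream of its 2 windows) and ENO2 at chr12:6914330-6914579 (plus), all in GRCh38.p14.
BNIP3: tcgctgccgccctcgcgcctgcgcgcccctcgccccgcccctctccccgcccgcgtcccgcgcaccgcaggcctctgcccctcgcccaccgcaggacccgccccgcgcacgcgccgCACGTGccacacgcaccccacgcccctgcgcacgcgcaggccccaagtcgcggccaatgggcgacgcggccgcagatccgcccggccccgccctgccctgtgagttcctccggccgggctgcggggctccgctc
PGK1: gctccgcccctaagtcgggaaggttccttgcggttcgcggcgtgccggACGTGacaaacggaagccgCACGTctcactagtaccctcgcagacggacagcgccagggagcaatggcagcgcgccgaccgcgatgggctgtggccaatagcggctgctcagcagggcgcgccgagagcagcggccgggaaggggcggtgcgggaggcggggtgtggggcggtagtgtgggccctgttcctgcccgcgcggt
P4HA1: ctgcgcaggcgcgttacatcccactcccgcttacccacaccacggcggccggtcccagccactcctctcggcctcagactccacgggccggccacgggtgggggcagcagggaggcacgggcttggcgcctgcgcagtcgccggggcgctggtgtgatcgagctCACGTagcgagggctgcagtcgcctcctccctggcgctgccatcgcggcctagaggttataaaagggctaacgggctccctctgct
ANKRD37: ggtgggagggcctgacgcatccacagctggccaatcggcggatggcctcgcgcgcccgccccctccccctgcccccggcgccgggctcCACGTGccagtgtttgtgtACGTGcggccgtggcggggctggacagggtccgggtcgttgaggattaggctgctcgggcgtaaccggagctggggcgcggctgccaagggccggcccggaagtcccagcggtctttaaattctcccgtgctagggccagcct
LDHA: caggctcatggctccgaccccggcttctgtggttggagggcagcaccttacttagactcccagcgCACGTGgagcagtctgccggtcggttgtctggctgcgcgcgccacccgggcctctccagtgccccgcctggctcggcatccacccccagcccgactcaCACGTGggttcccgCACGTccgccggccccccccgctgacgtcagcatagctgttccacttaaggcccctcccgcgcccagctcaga
ENO2: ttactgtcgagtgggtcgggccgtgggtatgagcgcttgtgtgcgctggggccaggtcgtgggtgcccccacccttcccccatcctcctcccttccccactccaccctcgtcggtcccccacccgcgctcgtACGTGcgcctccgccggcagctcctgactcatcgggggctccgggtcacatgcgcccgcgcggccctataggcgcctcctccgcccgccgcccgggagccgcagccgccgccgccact

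The motif lay 134 bases before the start of BNIP3 as a CACGTG, 202 and 183 bases before that of PGK1, and 86 bases before that of P4HA1. ANKRD37 held a CACGTG at 162 bases and an ACGTG at 143, LDHA a CACGTG at 185 and at 87 and a CACGT at 73, and ENO2 an ACGTG at 118. Promoter windows were found for 31 of the 35 genes, and SLC2A3, VEGFA, BNIP3L and NDRG1 are named without one. ACGTG on either strand was present for 20 of these 31 genes (64.5%), against 28.4% of the 9972 tested genes with a window and 21.7% of all 27305 genes. Because genes differ in their number of windows, the share was also taken over windows of equal length: 23 of 59 windows of the listed genes (39.0%), 21.9% of those of tested genes and 18.5% of all. GCGTG was present for 17 of the 31 genes (54.8%), against 52.2% of tested genes. Over windows it was in 20 of 59 (33.9%), fewer than the 42.7% for tested genes. These are matches of letters in a window, not binding sites.

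No glycolysis or hypoxia gene passed the test between miR-9 LNA and scrambled LNA cells. With limma and Benjamini-Hochberg adjustment, 0 of the 32 genes had an adjusted p under 0.05, and the share over all 27307 tested probe sets was 0%, with a lowest adjusted p of 0.296. At an unadjusted p under 0.05, 6 of the 32 genes (KDM3A, ENO2, PFKP, PDK1, HK1 and EGLN1) were higher in miR-9 LNA cells and 0 lower, where 13.8% of all tested probe sets were higher and 0.626% lower. By sign alone 27 of 32 were higher, where 66.9% of tested probe sets were, and 21 were higher in all 3 same-numbered pairs, where 40.2% were. The median difference of the 32 genes was 0.17, against 0.06 over all tested probe sets and 0.19 over the 5462 brightest of them (mean log2 level of at least 9.48), which hold 17 of the 32 genes. Among the 5462 brightest probe sets 31.2% were higher at an unadjusted p under 0.05 and 95.3% by sign, where the listed genes had 18.8% and 84.4%. In all 3 same-numbered pairs 67% of these brightest probe sets were higher, against 65.6% of the listed genes.

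The shift depended on scrambled replicate 1 and on the scaling. That array was the lowest of 6 for 19 of the 32 genes (59.4%), for 44.3% of tested probe sets and for 73.7% of the 5462 brightest. Without it the median difference of the listed genes was 0.06, against 0.04 over all tested probe sets and 0.12 over the 5462 brightest. After quantile normalization the medians were 0.02, 0.004 and 0.01, and 0 of 32 genes had an unadjusted p under 0.05, where 2.38% of probe sets were higher and 2.17% lower. By sign 21 of 32 were then higher, where 51.5% of probe sets were. With the replicate number as a block, 12 of the 32 genes (37.5%) were higher at an unadjusted p under 0.05. This held for 21.8% of tested probe sets and 45.5% of the 5462 brightest, and the lowest limma adjusted p over all probe sets was 0.159. The count of 6 genes was 3 without miR-9 LNA replicate 1 or without scrambled replicate 2, and 15 without scrambled replicate 3. Over all tested probe sets the count of 3755 was 2300 without miR-9 LNA replicate 1 and 4164 without scrambled replicate 3.

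**Figure D1:**
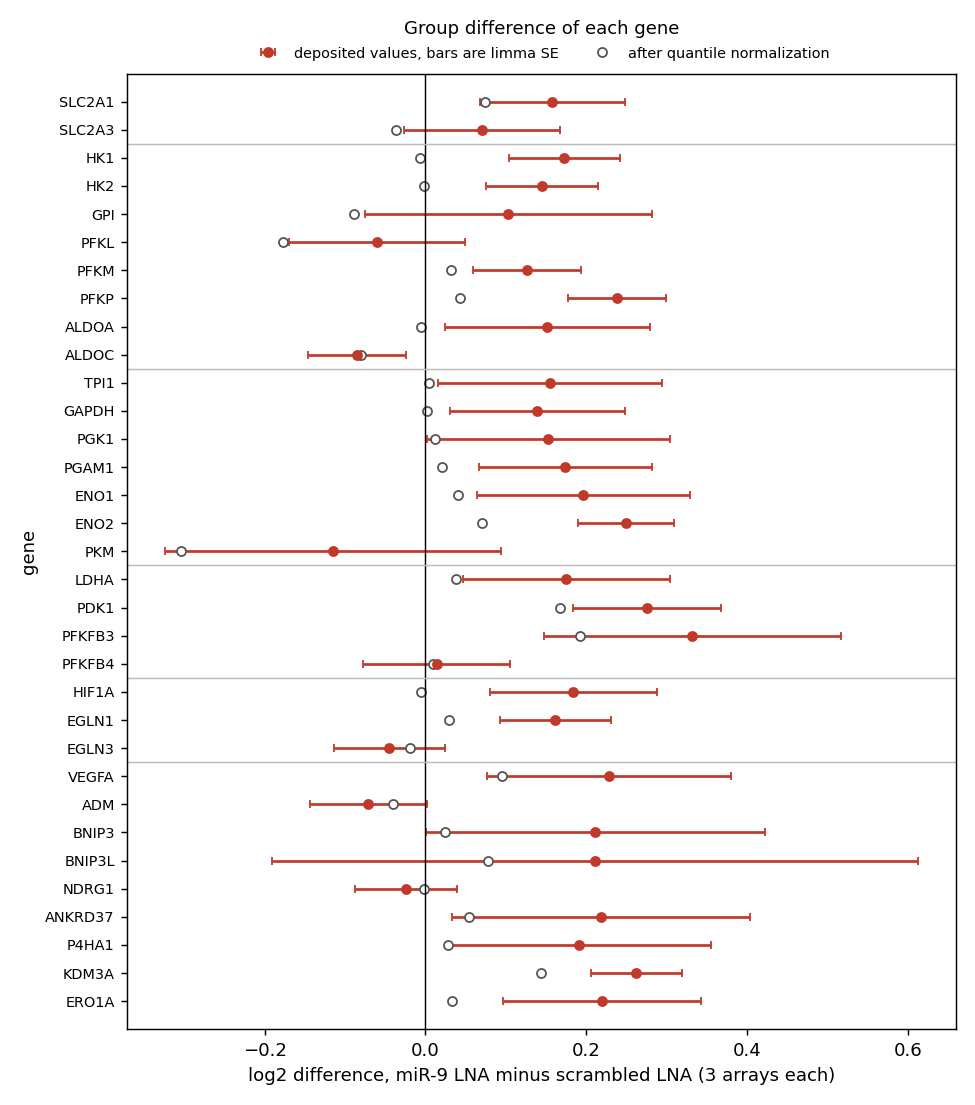
Difference between miR-9 LNA and scrambled LNA cells for each gene, in log2 units, with genes grouped by role down the page. Filled points are the deposited values with limma standard errors (3 arrays per group) and open points the values after quantile normalization, which lie closer to 0 for most genes.

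In 7 of the 32 genes every miR-9 LNA array was above every scrambled array, as it was for 18.1% of tested probe sets and 34.6% of the 5462 brightest, and in 0 was every one below, as for 3.97%. The 7 were KDM3A, ENO2, PFKP, PDK1, HK1, EGLN1 and PFKM. There was 1 such gene, KDM3A, after quantile normalization, where 5.97% of probe sets were above and 5.73% below. There were 11 without miR-9 LNA replicate 1 and 21 without scrambled replicate 3. Leaving an array out can only lessen overlap, and the shares over all tested probe sets are not given for these runs. KDM3A, a histone H3 lysine demethylase induced by HIF, was at 8.86, 8.80 and 8.90 with the miR-9 LNA, against 8.60, 8.58 and 8.60 with the scrambled LNA. Both groups were tight, and scrambled replicate 1 did not stand apart. The difference was 0.26 ± 0.06 (limma SE, n = 3 each), a 1.20-fold higher level, with a limma adjusted p of 0.296. It was 0.14 after quantile normalization and between 0.24 and 0.29 when single arrays were left out, with 0.27 without scrambled replicate 1.

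ENO2, the neuronal form of enolase, was at 10.24, 10.18 and 10.18 with the miR-9 LNA, against 10.01, 9.93 and 9.91 with the scrambled LNA. Its difference was 0.25 ± 0.06 (limma adjusted p = 0.296), a 1.19-fold level, and 0.07 after quantile normalization. PFKP, the platelet form of phosphofructokinase, was at 11.96, 11.91 and 11.86 with the miR-9 LNA, against 11.70, 11.70 and 11.61 with the scrambled LNA. Both genes showed a gap between the groups on the deposited scale that was smaller after quantile normalization. For PFKP the difference was 0.24 ± 0.06 (limma adjusted p = 0.296) as deposited and 0.04 after quantile normalization.

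Among the transporters, SLC2A1, which takes up glucose in most cells, was at 8.30, 8.39 and 8.45 with the miR-9 LNA, against 8.05, 8.27 and 8.35 with the scrambled LNA. The groups overlapped, and scrambled replicate 1 was the lowest array. The difference was 0.16 ± 0.09 (limma adjusted p = 0.439). SLC2A3, a transporter of high affinity for glucose, differed by 0.07 ± 0.10.

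The hexose steps had 8 tested genes, of which 6 were higher, with a median difference of 0.14 and of -0.01 after quantile normalization. HK1, the hexokinase found in most tissues, was at 10.24, 10.28 and 10.15 with the miR-9 LNA, against 10.10, 10.10 and 9.96 with the scrambled LNA, without overlap. Its difference was 0.17 ± 0.07 (limma adjusted p = 0.331) and -0.007 after quantile normalization, a change of sign. HK2, the hexokinase that many tumours induce, differed by 0.15 ± 0.07 (limma adjusted p = 0.381). GPI, which turns glucose 6-phosphate into fructose 6-phosphate, differed by 0.10 ± 0.18, and ALDOA, the main aldolase, by 0.15 ± 0.13. PFKM, the muscle form of phosphofructokinase, differed by 0.13 ± 0.07 without overlap of the groups. PFKL, the liver form, and ALDOC, the brain form of aldolase, were the 2 genes of these steps with lower means, with differences of -0.06 ± 0.11 and -0.08 ± 0.06.

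The triose steps had 7 tested genes, 6 of them higher, with a median difference of 0.15. GAPDH, the dehydrogenase often used as a loading control, was at 14.80, 14.74 and 14.77 with the miR-9 LNA, against 14.38, 14.71 and 14.80 with the scrambled LNA. Scrambled replicate 1 alone was low, and without it the difference of 0.14 ± 0.11 became 0.01. PGAM1, the phosphoglycerate mutase, had the same shape, at 13.62, 13.40 and 13.48 with the miR-9 LNA against 13.12, 13.37 and 13.49 with the scrambled LNA. TPI1 (triose phosphate isomerase), PGK1 (phosphoglycerate kinase) and ENO1 (the main enolase) differed by 0.15 ± 0.14, 0.15 ± 0.15 and 0.20 ± 0.13.

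PKM, pyruvate kinase of muscle and tumours, was the exception of this stretch. It was at 11.57, 11.19 and 11.86 with the miR-9 LNA, against 12.01, 11.33 and 11.63 with the scrambled LNA, with scrambled replicate 1 the highest array in place of the lowest. The difference was -0.11 ± 0.21 (limma adjusted p = 0.809), and its second probe set differed by 0.10.

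Of the 4 genes around pyruvate and flux control, all had higher means, with a median of 0.23 and of 0.10 after quantile normalization. PDK1, the kinase that shuts pyruvate out of the citric acid cycle, was at 8.71, 8.61 and 8.75 with the miR-9 LNA, against 8.27, 8.39 and 8.59 with the scrambled LNA. The groups did not overlap, narrowly, and the difference was 0.28 ± 0.09 (limma adjusted p = 0.298), a 1.21-fold level. Its probe sets disagreed: a dimmer one had a difference of -0.14 ± 0.07. PFKFB3, which makes the fructose 2,6-bisphosphate that activates phosphofructokinase, had the largest difference of the 32 genes, 0.33 ± 0.18 (limma adjusted p = 0.429), or 1.26-fold. It was at 9.24, 9.34 and 9.64 with the miR-9 LNA, against 8.66, 9.23 and 9.34 with the scrambled LNA, and without scrambled replicate 1 the difference was 0.13. PFKFB4, a second enzyme of this kind, differed by 0.01 ± 0.09, and LDHA, which turns pyruvate into lactate, by 0.18 ± 0.13.

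In oxygen sensing, HIF1A, the regulated alpha subunit of HIF, was at 12.01, 11.92 and 12.07 with the miR-9 LNA, against 11.59, 11.93 and 11.94 with the scrambled LNA. Scrambled replicate 1 was low and the other arrays lay together, giving a difference of 0.18 ± 0.10 (limma adjusted p = 0.435) and of -0.006 after quantile normalization. HIF is regulated mainly by the stability of this protein, which arrays do not measure. EGLN1, the main oxygen-sensing prolyl hydroxylase, differed by 0.16 ± 0.07 (limma adjusted p = 0.347) without overlap of the groups, and EGLN3, a HIF-induced form, by -0.04 ± 0.07 at a level near the filter.

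The other HIF targets had 8 tested genes, 7 of them higher, with a median of 0.22 and of 0.04 after quantile normalization. VEGFA, the growth factor of blood vessels, differed by 0.23 ± 0.15 and by 0.04 without scrambled replicate 1. ERO1A, an oxidase of disulfide bond formation, differed by 0.22 ± 0.12. ANKRD37, an ankyrin repeat protein, differed by 0.22 ± 0.18, and P4HA1, a collagen prolyl hydroxylase subunit, by 0.19 ± 0.16. Without scrambled replicate 1 these differences were 0.0007 and 0.05. NDRG1, a stress-induced gene, differed by -0.02 ± 0.06 at levels between 7.19 and 7.34. ADM was at 6.912, 6.764 and 6.875 with the miR-9 LNA, against 6.974, 6.788 and 7.001 with the scrambled LNA.

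Several of these genes had further probe sets on the arrays. Of the 16 genes with more than 1 tested probe set, 11 had 1 direction of group difference over all of them, and ENO1, PDK1, PFKP, PKM and VEGFA did not. Probe sets whose names mark possible matches to related transcripts (such as those used for GAPDH, ALDOA, SLC2A3 and PFKL) may include signal of paralogs or processed pseudogenes, which these glycolytic genes have.

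The balance between isozymes was compared for 9 pairs of related genes, from the log2 difference of the pair on each array. In a two-sided exact permutation test 3 against 3 arrays give no p under 0.1, so no pair could pass, and the values are given as a description. The groups overlapped in all 9 pairs. PFKL minus PFKM was 0.18, 0.13 and 0.39 with the miR-9 LNA, against 0.40, 0.30 and 0.56 with the scrambled LNA (change of -0.19, exact p = 0.2, n = 3 each). Between same-numbered arrays it changed by -0.22, -0.17 and -0.17. PFKL was thus lower relative to PFKM in each of the 3 pairs of arrays. In all, 6 of the 9 pairs had 1 direction in all 3 pairs of arrays: PFKL and PFKM, ALDOC and ALDOA, SLC2A3 and SLC2A1, PFKFB4 and PFKFB3, and EGLN3 and EGLN1 with the first gene lower relative to the second, and PFKP and PFKM with the first higher. How many unrelated gene pairs have 1 direction in this way was not counted. The group changes of these 6 pairs, in that order, were -0.19, -0.24, -0.09, -0.32, -0.21 and 0.11 as deposited. After quantile normalization they were -0.21, -0.07, -0.11, -0.18, -0.05 and 0.01. EGLN3 minus EGLN1 changed by -0.15, -0.31 and -0.16 between same-numbered arrays. HK2 minus HK1 was -0.99, -0.90 and -0.87 with the miR-9 LNA, against -0.84, -0.96 and -0.87 with the scrambled LNA, with no common direction.

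The larger variation of the listed genes went with the replicate number. In 21 of the 32 genes (65.6%) the array of replicate 3 was the highest of its group in miR-9 LNA cells and again in scrambled LNA cells, where this held for 22.9% of tested probe sets and 27.5% of the 5462 brightest. Replicate 1 was highest in both groups for 2 genes, PFKP and ENO2 (12.5% of probe sets), and replicate 2 for 1 gene, HK1 (10.7%). On average over both groups, 27 of 32 genes were above the mean of replicates 1 and 2 on replicate 3, as were 56.5% of probe sets, with a median difference of 0.22 against 0.02 over all tested probe sets and 0.05 over the 5462 brightest. After quantile normalization the medians were 0.17, -0.007 and -0.009, and 21 genes were again highest on replicate 3 in both groups (18% of probe sets). Replicate 3 was singled out, and this comparison added, after the values were seen.

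**Figure D2:**
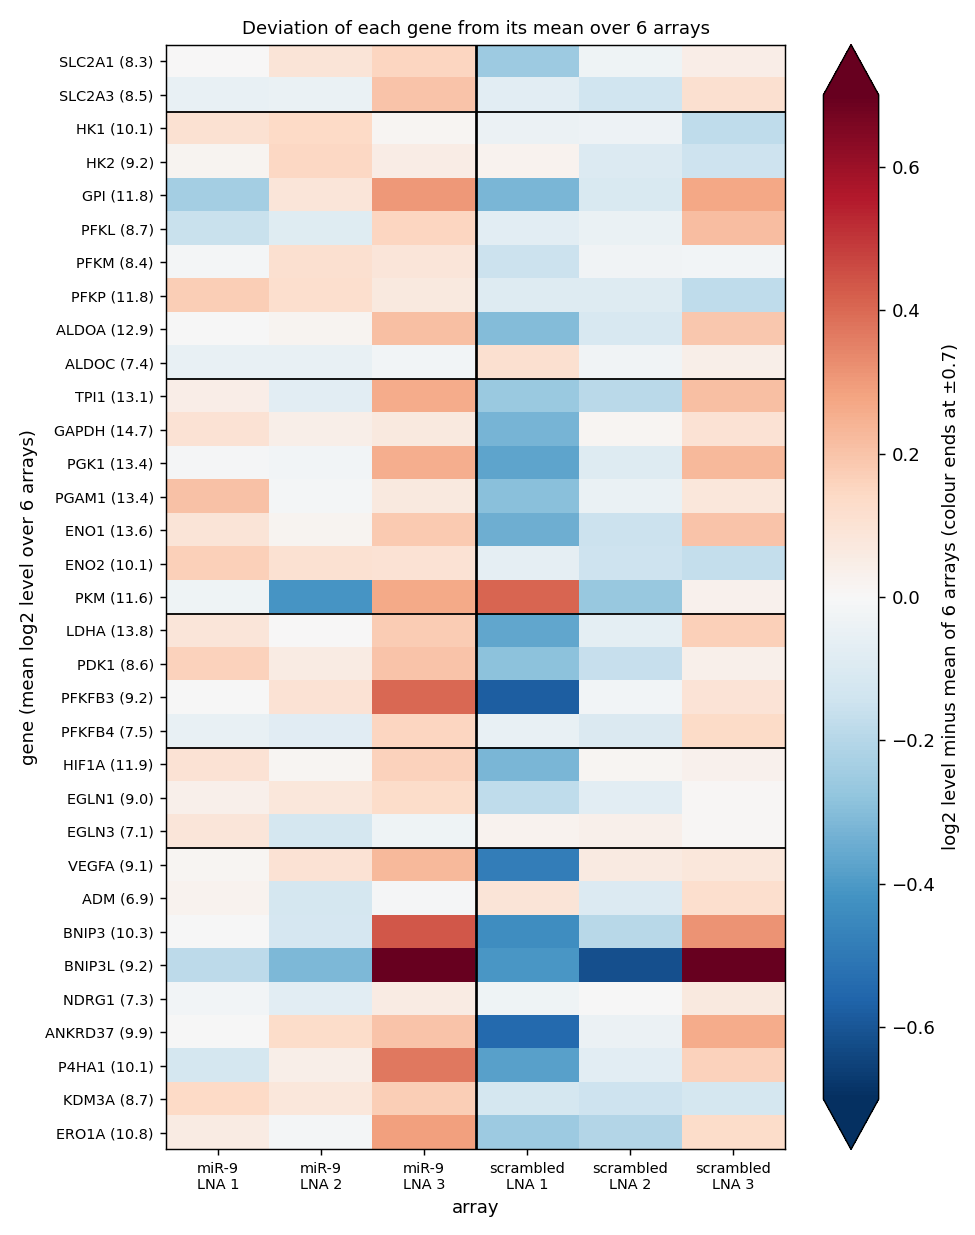
Level of each gene on each array minus its mean over the 6 arrays, in log2 units, with miR-9 LNA arrays on the left, scrambled LNA arrays on the right and genes grouped by role. Red (higher) fills much of both replicate 3 columns and blue (lower) the column of scrambled replicate 1.

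Across arrays, the median deviation of the listed genes from their own means was 0.007, 0.02 and 0.17 on miR-9 LNA replicates 1, 2 and 3, against -0.26, -0.08 and 0.09 on scrambled replicates 1, 2 and 3. For the 5462 brightest probe sets it was 0.14, 0.06 and 0.08 with the miR-9 LNA, against -0.23, -0.03 and -0.01 with the scrambled LNA. Scrambled replicate 1 was the lowest array for both. The listed genes were highest on replicate 3 of each group, while the 5462 brightest probe sets were highest on replicate 1 of the miR-9 LNA group and on replicate 3 of the scrambled group. The ACTB and GAPDH 3' minus 5' differences given above were also lowest on replicate 3 of both groups, and their part in these values was not tested.

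BNIP3L, a mitophagy receptor of the outer mitochondrial membrane, varied most. It was at 8.99, 8.86 and 9.99 with the miR-9 LNA, against 8.76, 8.55 and 9.88 with the scrambled LNA. Replicate 3 was about 1 log2 unit above the other arrays in both groups (by 1.06 in miR-9 LNA cells and 1.22 in scrambled LNA cells, or 1.14 over both, which is 2.21-fold). A limma F test of the replicate number within the groups, an added test, asks whether any of replicates 1, 2 and 3 differ. Here and below, it does not test replicate 3 against the others. In this test BNIP3L was the 1 listed gene with a limma F adjusted p under 0.05 (0.0337), where 0.0476% of tested probe sets passed. It lost that call with median centring of the arrays (limma adjusted p = 0.0719) and with a filter at the 75th percentile (0.0898), and without the replicate 3 array of either group the contrast rested on 1 array (0.480 without that of the miR-9 LNA, 0.841 without that of the scrambled LNA). Between miR-9 LNA and scrambled LNA cells it differed by 0.21 ± 0.40, since the replicates were far apart in both groups. Its second probe set was 1.51 higher on replicate 3.

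BNIP3, the related mitophagy receptor, was at 10.33, 10.21 and 10.77 with the miR-9 LNA, against 9.89, 10.14 and 10.65 with the scrambled LNA. Replicate 3 was the highest of each group, by 0.56 on average (limma F adjusted p = 0.109), and the groups overlapped. BNIP3 and BNIP3L thus shared the high arrays, at 1.48-fold and 2.21-fold.

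Among the enzymes, GPI was at 11.60, 11.92 and 12.14 with the miR-9 LNA, against 11.51, 11.73 and 12.11 with the scrambled LNA, 0.43 higher on replicate 3. Its replicate 2 was also above replicate 1 in both groups, and the limma F adjusted p over the replicate numbers was 0.0842. PGK1 was at 13.38, 13.37 and 13.64 with the miR-9 LNA, against 13.02, 13.30 and 13.61 with the scrambled LNA, 0.36 higher on replicate 3. All 6 PGK1 probe sets were higher on replicate 3, by 0.28 to 0.72. TPI1 was 0.36 higher, ALDOA 0.30, ENO1 0.29, PFKL 0.27 and LDHA 0.26, and all of these were highest on replicate 3 in both groups.

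Of the remaining genes, P4HA1 was at 9.98, 10.14 and 10.47 with the miR-9 LNA, against 9.72, 10.03 and 10.26 with the scrambled LNA, 0.40 higher on replicate 3. Its replicate 2 was also above replicate 1 in both groups, and the limma F adjusted p over the replicate numbers was 0.0936. PFKFB3 was 0.37 higher, ANKRD37 0.35, ERO1A 0.31, VEGFA 0.23, SLC2A3 0.23, PFKFB4 0.21, PDK1 0.17, SLC2A1 0.15, HIF1A 0.14 and EGLN1 0.10. Apart from BNIP3L, none of these passed the limma F test over all probe sets, and 15 of the 32 genes (46.9%) had an unadjusted p under 0.05, where 16.1% of tested probe sets did. For some genes the replicate 3 difference over both groups came largely from a low replicate 1, mainly that of the scrambled group. Over both groups, replicates 1, 2 and 3 of VEGFA had means of 8.89, 9.21 and 9.28, and those of ANKRD37 9.64, 9.96 and 10.15. By such means PFKFB3, HIF1A, SLC2A1 and EGLN1 also rose more from replicate 1 to 2 than from 2 to 3. For all of these genes scrambled replicate 1 was the lowest array. Replicate 1 of VEGFA was at 9.14 with the miR-9 LNA, against 8.64 with the scrambled LNA. With the miR-9 LNA alone, HIF1A fell from 12.01 to 11.92 between replicates 1 and 2. VEGFA, PFKFB3 and EGLN1 there rose more from replicate 2 to 3, and ANKRD37 and SLC2A1 more from 1 to 2. By the means over both groups, ERO1A, SLC2A3, PFKFB4, PDK1 and P4HA1 rose more from replicate 2 to 3.

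**Figure D3:**
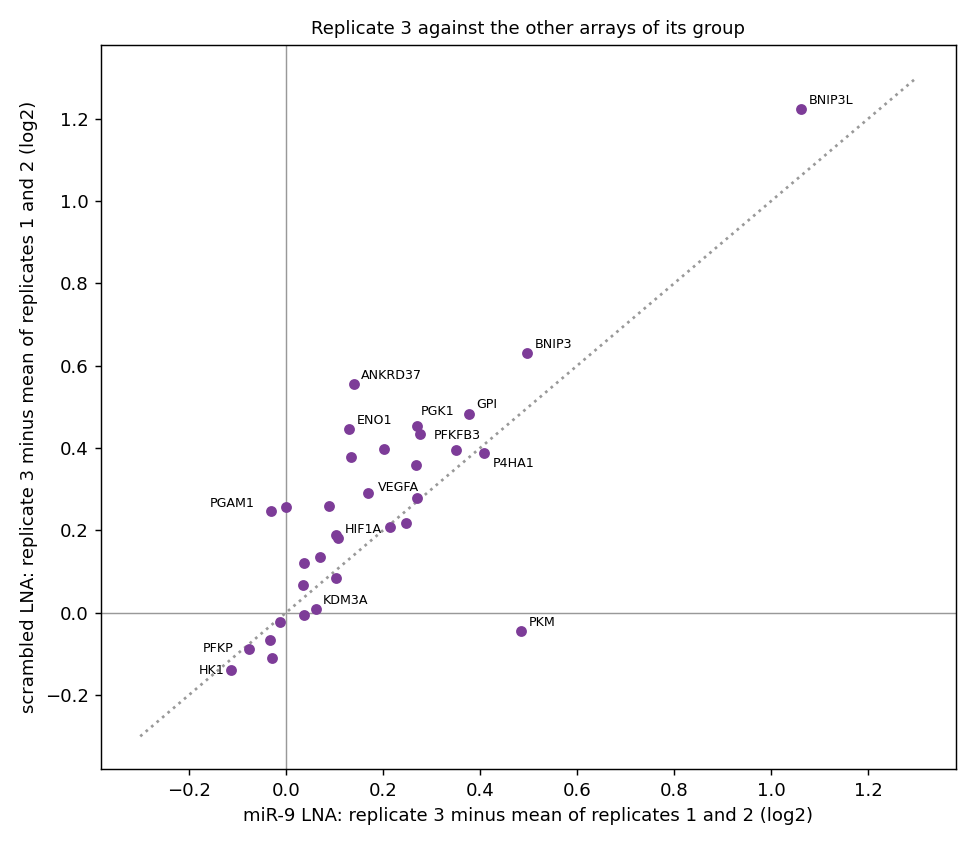
Level on replicate 3 minus the mean of replicates 1 and 2 for each gene, in log2 units, in miR-9 LNA cells (horizontal axis) and scrambled LNA cells (vertical axis), with a dotted line where both are equal. Most genes are above 0 in both groups, BNIP3L farthest at 1.06 and 1.22, while HK1 and PFKP are below 0 in both and PKM is above 0 with the miR-9 LNA alone.

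HK1, HK2, PFKP, ENO2 and EGLN3 were lower on replicate 3 on average, with differences of -0.13, -0.07, -0.08, -0.05 and -0.02, and that of KDM3A was 0.04. The hexose steps as a group had a median replicate 3 difference of 0.03, against 0.22 for the triose steps, 0.23 for pyruvate and flux control and 0.33 for the other HIF targets. PKM had a replicate 3 difference of 0.49 in miR-9 LNA cells and -0.04 in scrambled LNA cells. Of the 7 genes whose groups did not overlap, PDK1 and EGLN1 were also highest on replicate 3 in both groups, and KDM3A, ENO2, PFKP, HK1 and PFKM were not.

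**Figure D4:**
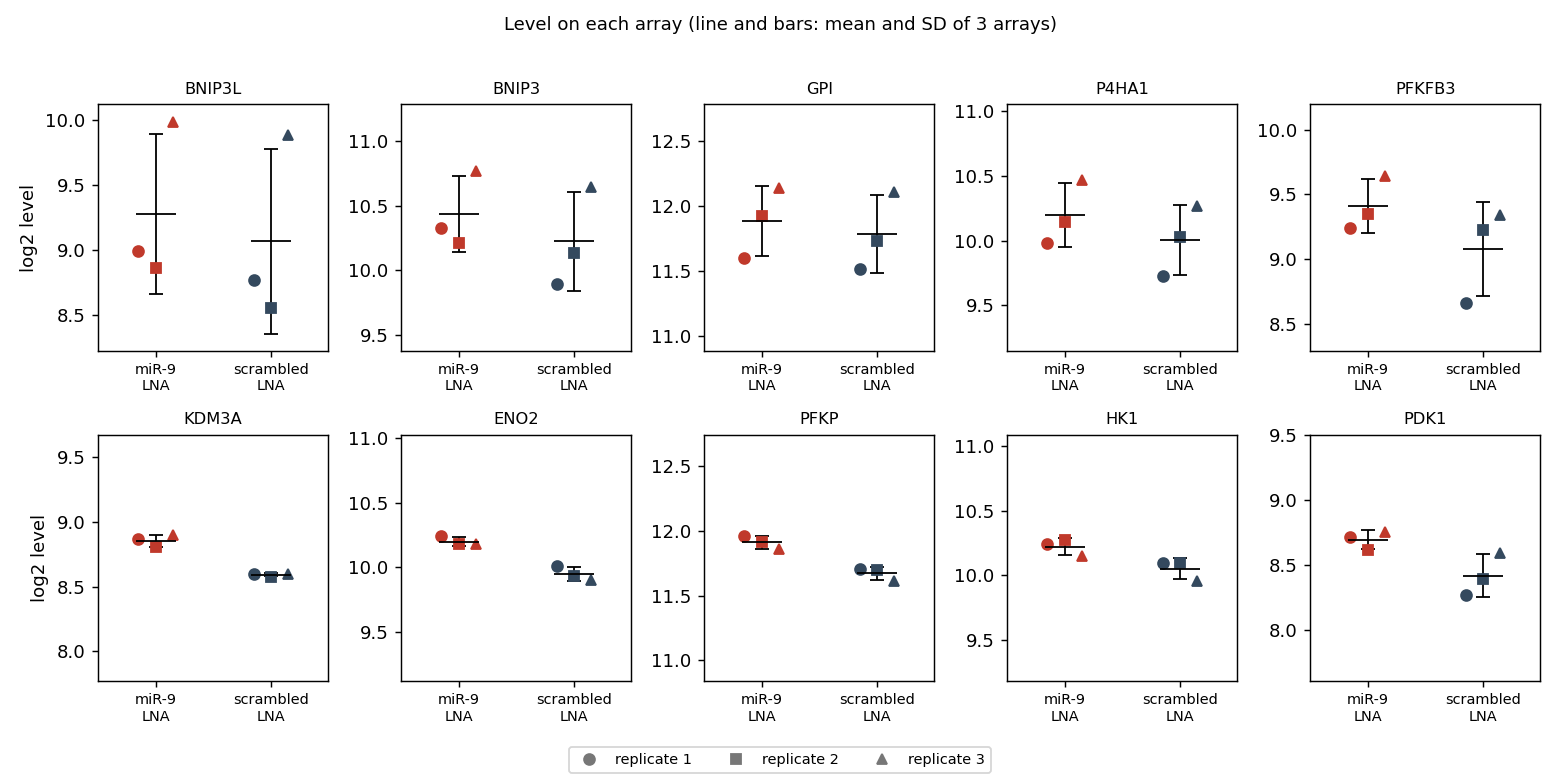
Log2 level on each array for 5 genes that were high on replicate 3 (top row) and 5 whose groups did not overlap (bottom row), each panel spanning the same range of log2 units, with miR-9 LNA left of scrambled LNA. Lines and bars are the mean and SD of 3 arrays, and symbols mark the replicate number; the triangles (replicate 3) are the highest of both groups in the top row.

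The promoter motif was counted again with the genes divided by this pattern. ACGTG was present for 12 of 17 genes that were highest on replicate 3 in both groups and have a window (70.6%), and for 6 of 11 other tested genes (54.5%), against the 28.4% of tested genes given above. Over windows the counts were 14 of 24 (58.3%) and 7 of 28 (25.0%), against 21.9% for tested genes. The difference between these shares was not tested. Either ACGTG or GCGTG was present for 16 of the 17 (94.1%) and 8 of the 11 (72.7%), against 63.8% of tested genes, also not tested. Over windows these were 20 of 24 (83.3%) and 11 of 28 (39.3%), against 54.2% for tested genes, so the other tested genes lay below that share. Single genes went both ways for ACGTG. Counting each strand, so that a CACGTG counts as 2, HK2 had 4 matches in a window and a replicate 3 difference of -0.07. ALDOC, with 3, had one of 0.02. ENO1, PFKL and PFKFB4, with 0, had 0.29, 0.27 and 0.21. Each of these had GCGTG in a window, as did 52.2% of tested genes. SLC2A1 was highest on replicate 3 in both groups with neither motif. HK1 and KDM3A had GCGTG, and GAPDH had 2 matches of ACGTG, without being highest on replicate 3 in both groups.

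Further genes of the same pathways were read in the same fit. Among 25 other tested genes of glycolysis and pyruvate metabolism, 0 passed the limma test, 21 had a higher mean in miR-9 LNA cells and 4 a lower one, and 8 were higher at an unadjusted p under 0.05. These are 84% by sign and 32% at that p, beside 66.9% and 13.8% of all tested probe sets and 95.3% and 31.2% of the 5462 brightest. The median was 0.20, and 0.04 after quantile normalization. PDHX, a subunit of the pyruvate dehydrogenase complex, differed by 0.32 ± 0.07 (limma adjusted p = 0.296) and by 0.14 after quantile normalization. It was at 10.28, 10.11 and 10.11 with the miR-9 LNA, against 9.776, 9.854 and 9.901 with the scrambled LNA, without overlap. PDK3, a second pyruvate dehydrogenase kinase, differed by 0.31 ± 0.09 (0.11 after quantile normalization), and PFKFB1 and HKDC1, a liver form of PFKFB and a hexokinase-like enzyme, had differences of -0.16 ± 0.08 and -0.11 ± 0.07. Of these 25 genes, 6 (24%) were highest on replicate 3 in both groups and their median replicate 3 difference was -0.001.

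Of 20 other tested genes of the HIF pathway itself, 0 passed the limma test, 16 were higher and 4 lower, and 2 were higher at an unadjusted p under 0.05. These shares, 80% and 10%, stand beside the same 66.9% and 13.8%. The median was 0.11, and 0.002 after quantile normalization. SENP1, a SUMO protease acting on HIF1A, differed by 0.24 ± 0.06 and CUL2, the scaffold of the ubiquitin ligase that degrades HIF alpha, by 0.23 ± 0.08 (limma adjusted p of 0.296 and 0.303), which became 0.10 and 0.07 after quantile normalization. CITED2, a HIF-induced inhibitor of HIF, differed by -0.06 ± 0.09 and HIF3A, a further alpha subunit, by -0.02 ± 0.06. Here 5 genes (25%) were highest on replicate 3 in both groups, with a median of 0.08.

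Of 35 other tested hypoxia-inducible genes, 0 passed the limma test, 29 had a higher mean in miR-9 LNA cells and 6 a lower one, and 6 were higher at an unadjusted p under 0.05. These shares, 82.9% and 17.1%, stand beside 66.9% and 13.8%. The median was 0.15, and 0.03 after quantile normalization. WSB1, a ubiquitin ligase subunit, differed by 0.24 ± 0.06 and PPP1R3B, a glycogen-targeting phosphatase subunit, by 0.18 ± 0.06 (0.05 and 0.14 after quantile normalization), while LRP1, a lipoprotein receptor, differed by -0.12 ± 0.07 and CA12, a carbonic anhydrase, by -0.08 ± 0.06. Of these 35, 21 (60.0%) were highest on replicate 3 in both groups, with a median of 0.17. Beside the 22.9% of tested probe sets, this share was high for the hypoxia-inducible genes outside the list and near the background for the other glycolytic and HIF pathway genes. These lists were chosen with earlier results of these data known, so the shares are not an independent check.

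The hypoxia-inducible genes of largest replicate 3 difference are described here, chosen after their values were seen. DDIT4, an inhibitor of mTOR signalling, was at 8.06, 8.51 and 9.44 with the miR-9 LNA, against 7.94, 8.60 and 9.38 with the scrambled LNA, 1.14 higher on replicate 3. Its replicate 2 was also above replicate 1 in both groups, and the limma F adjusted p over the replicate numbers was 0.034. TMEM45A, a membrane protein, was at 6.99, 6.91 and 7.99 with the miR-9 LNA, against 6.80, 6.95 and 7.91 with the scrambled LNA, 1.04 higher (limma F adjusted p = 0.043). Its levels on replicates 1 and 2 of both groups lay below the filter at 7.11. It was tested only because its replicate 3 arrays raised its mean, so its call is not separate support for the pattern. As for BNIP3L, both calls were lost with median centring (limma F adjusted p of 0.0719 for DDIT4 and 0.0996 for TMEM45A). The call of DDIT4 was also lost with the filter at the 75th percentile (0.0898), under which TMEM45A was not tested, and without scrambled replicate 3 (0.841 for both genes) or miR-9 LNA replicate 3 (0.480, with TMEM45A then below the filter). The next were FAM162A, a mitochondrial protein of hypoxic cell death, at 0.96, CCNG2, a cyclin of growth arrest, at 0.76, and GBE1, the glycogen branching enzyme, at 0.74. Between miR-9 LNA and scrambled LNA cells, DDIT4 differed by 0.03 ± 0.43 and TMEM45A by 0.08 ± 0.36.

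**Figure D5:**
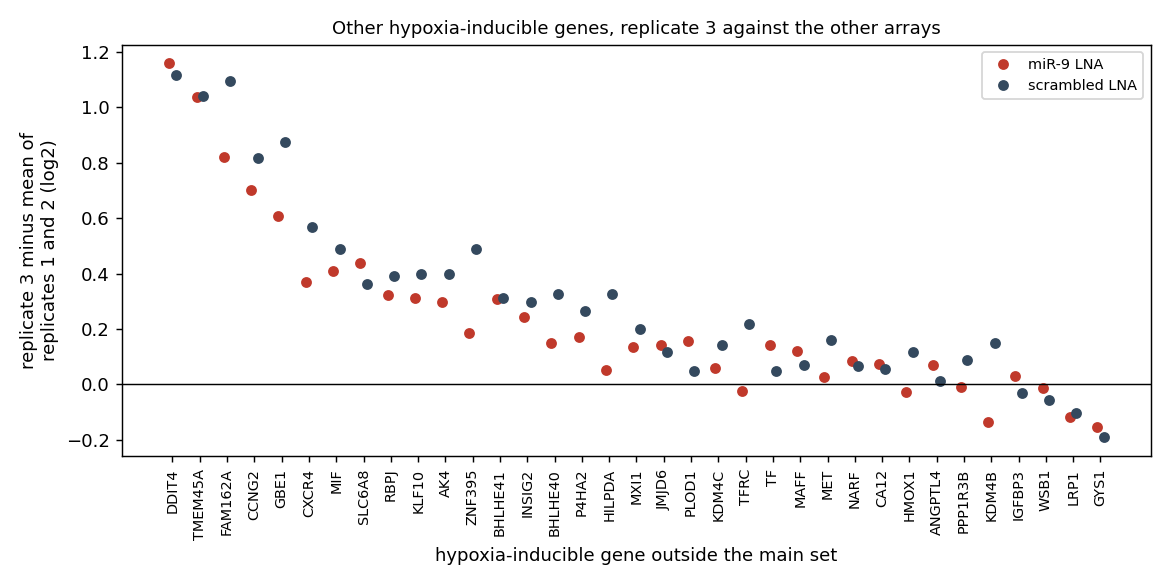
Level on replicate 3 minus the mean of replicates 1 and 2, in log2 units, for the 35 tested hypoxia-inducible genes outside the main set, ordered by the mean over both groups. The points of miR-9 LNA and scrambled LNA cells lie close for DDIT4 and TMEM45A, above 1 in both groups.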

How the data were processed

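The authors deposited log2 expression values of 54675 probe sets. The submitters' processing notes name affy and RMA for them, with no version. The study's own analysis used limma, per the series text. Groups and replicate numbers come from the sample titles. From the deposited values, 62 control probe sets were left out and the 27307 with a mean at or above the median (7.11) were tested two-sided with limma 3.58.1 (R 4.3.3), by lmFit and eBayes with Benjamini-Hochberg adjustment over all of them and a threshold of 0.05. The number of arrays limits the precision.

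By the platform annotation, 41091 probe sets carried 1 gene symbol, 1801 carried several and 11721 carried none, and only the first kind was named. All 35 genes are named, and of each further list the 2 of smallest p in each direction. DDIT4, TMEM45A, FAM162A, CCNG2 and GBE1 were named after their values were seen. The members and lists were chosen with earlier results of these data known.

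Deviations from the group means correlated across probe sets at r = 0.231, 0.193 and 0.634 between same-numbered arrays, and at -0.429 to 0.168 between others. The numbers were therefore taken as pairing the samples, a pairing from the data, since the labels do not state what a number shares. Alternatives covered normalization, the filter, array weights, the variance model, a replicate block, the mean of a gene's probe sets and each array left out. The test of the replicate number was added after the data were seen. The scripts were tested on simulated data. Promoter and microRNA sequences are from RefSeq (GRCh38.p14). Python 3.11.15 and matplotlib 3.10.9 drew the figures.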

Additional observations from a re-analysis of the deposited data

How the results depend on the processing

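No listed gene and no tested probe set had a limma adjusted p under 0.05 between miR-9 LNA and scrambled LNA cells under any alternative run. At an unadjusted p under 0.05, 3755 probe sets were higher and 171 lower. These counts became 650 and 593 after quantile normalization and 5944 and 274 with the replicate block, while the lower ones were 65 with median centring, 1032 with no level filter, 19 with a filter at the 75th percentile, 584 with a trended, robust variance and 1183 with array weights. With single arrays left out they ran from 2300 to 4164 higher and from 42 to 865 lower. Of the listed genes, 6 were higher at this level, 0 after quantile normalization, 12 with the replicate block and 3 to 15 with single arrays left out. The groups did not overlap in 7 listed genes, in 1 after quantile normalization and in 7 to 21 with single arrays left out. Leaving an array out can only lessen overlap, and the share over all tested probe sets is not given for those runs. Quantile normalization took the median difference of the listed genes to 0.023 and those of the other glycolysis and pyruvate, HIF pathway and hypoxia-inducible genes to 0.042, 0.0019 and 0.026. It reversed SLC2A3 (-0.037), HK1 (-0.0068), HK2 (-0.0021), GPI (-0.088), ALDOA (-0.0048), HIF1A (-0.0058), HK2 minus HK1 (0.0046) and BNIP3 minus BNIP3L (-0.053), and median centring reversed NDRG1 (0.0032). With the mean of a gene's probe sets, PFKP minus PFKM was -0.031, SLC2A3 minus SLC2A1 0.031 and BNIP3 minus BNIP3L -0.0025.

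With single arrays left out, differences changed sign for SLC2A3 (-0.012 to 0.14), GPI (-0.031 to 0.26), PFKL (-0.15 to 0.032), PKM (-0.28 to 0.062), PFKFB4 (-0.058 to 0.083), EGLN3 (-0.098 to 0.0044), BNIP3L (-0.14 to 0.62), NDRG1 (-0.058 to 0.0073), HK2 minus HK1 (-0.063 to 0.0088), ENO2 minus ENO1 (-0.12 to 0.21) and BNIP3 minus BNIP3L (-0.20 to 0.21). Groups did not overlap in 0 to 3 of the isozyme pairs. The F test of the replicate number passed 13 probe sets and 1 listed gene as reported. It passed 582 and 2 after quantile normalization, 0 and 0 with median centring, 312 and 2 with no level filter, 0 and 0 with a filter at the 75th percentile, 829 and 2 with a trended, robust variance, and 738 and 4 with array weights. With single arrays left out it passed 0 to 11376 probe sets and 0 to 22 listed genes, with 1 residual degree of freedom. The cause of these changes was not tested. The count of listed genes highest on replicate 3 in every group that kept that array lay between 19 and 24 over the alternatives run. The count of 24 was without miR-9 LNA replicate 3, where the scrambled group alone had to meet this. The share over all tested probe sets is not given for this range.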

Other observations

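Genes outside the glycolysis and hypoxia list, chosen after their values were seen, also had high replicate 3 arrays. CXCR4, a chemokine receptor induced by hypoxia, was at 11.55, 11.75 and 12.02 in miR-9 LNA cells, against 11.18, 11.65 and 11.98 in scrambled LNA cells, 0.47 higher on replicate 3. MIF, a cytokine induced by hypoxia, was at 12.65, 12.43 and 12.95 in miR-9 LNA cells, against 12.47, 12.63 and 13.04 in scrambled LNA cells, 0.45 higher. CD70, a costimulatory ligand and one of the markers of Hodgkin lymphoma lines, was at 10.20, 10.16 and 10.57 in miR-9 LNA cells, against 10.04, 10.25 and 10.65 in scrambled LNA cells, also 0.45 higher. Of the other markers of these lines, FSCN1, TRAF1, TNFRSF8 and IRF4 had replicate 3 differences of 0.33, 0.22, 0.19 and 0.14, and CCL17 one of -0.04. These values were not tested between replicate numbers as a group.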
